A study of Mus musculus with 12 samples.

Results

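Thbs1, Tnc, Tgfbi and Col4a1 encode secreted proteins of the extracellular matrix, and their RNA was compared here between mouse keratinocytes given deltaNp63alpha and controls. The members were the probes that the platform table annotates to these symbols. Each gene had 1 probe, so 4 of the 9558 probes and 4 of the 6774 named genes were described. They were chosen by their low ratios at each calcium level in these same arrays, so those ratios are a description and carry no p-value. The NCBI gene identifiers in the platform table are 21825 for Thbs1, 21923 for Tnc, 21810 for Tgfbi and 12826 for Col4a1.

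All cells were primary skin keratinocytes of C57Bl/6NCr mice, and all were transduced with an adenovirus. One RNA of each array came from cells given a virus encoding deltaNp63alpha, the p63 form without the N-terminal transactivation domain. The other came from controls given a virus encoding beta-galactosidase. Cells spent the 24 h before harvest in medium with 0.05 mM calcium (low calcium) or 0.12 mM calcium (high calcium, in which keratinocytes start to differentiate), and total RNA was taken 41 h after transduction. The 12 spotted cDNA arrays each held both RNAs of 1 calcium level, in Cy3 and Cy5, and a number of arrays this small limits the precision. Each level had 3 repeats, and each repeat was hybridised once with deltaNp63alpha in Cy5 (a forward array) and once with deltaNp63alpha in Cy3 (a reversed array). Together they make a dye-swap pair, which is 1 replicate here. The design calls the arrays technical repeats, so the spread between pairs may be technical only. Whether RNA was pooled over animals is not given in the sources used here.

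Thrombospondin 1 (Thbs1), tenascin C (Tnc) and the transforming growth factor beta induced protein (Tgfbi) are matricellular or adhesive glycoproteins. Such proteins bind cell surface receptors and other matrix proteins, and change adhesion and migration more than they build structure. Col4a1 encodes a chain of collagen IV, the network collagen of basement membranes, on which basal keratinocytes rest. Thrombospondin 1 binds CD47, CD36 and integrins and can activate latent TGF-beta. Tenascin C appears at wound edges, and Tgfbi is a target of TGF-beta signalling that links collagens to integrins.

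Promoter windows from RefSeq (GRCm38.p6), of 250 bases before to 50 after an annotated start, were matched by symbol for 3 of the 4 members, Tnc, Tgfbi and Col4a1. A window of Thbs1 was not used here. They are shown as the sequence beside the start of members whose ratios lay below 0 in nearly every pair, and since p63, AP-1 and Smad factors act through short DNA motifs. Capitals mark matches on either strand, 5′ to 3′ along the gene. The motifs searched were AP-1 (TGANTCA), Smad (CAGAC), TEAD (GGAATG), Sp1 (GGGCGG), the TATA box (TATAAA) and the p53 family half-site. No motif match overlapped another in these windows.

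Tnc, chr4:64046966-64047265, minus strand: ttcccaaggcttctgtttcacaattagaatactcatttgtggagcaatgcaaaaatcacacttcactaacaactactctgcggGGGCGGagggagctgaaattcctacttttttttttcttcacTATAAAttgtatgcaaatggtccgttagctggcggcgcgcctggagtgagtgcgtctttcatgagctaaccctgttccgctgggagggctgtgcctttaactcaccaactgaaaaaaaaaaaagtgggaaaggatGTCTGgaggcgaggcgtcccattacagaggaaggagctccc
Tgfbi, chr13:56609336-56609635, plus strand: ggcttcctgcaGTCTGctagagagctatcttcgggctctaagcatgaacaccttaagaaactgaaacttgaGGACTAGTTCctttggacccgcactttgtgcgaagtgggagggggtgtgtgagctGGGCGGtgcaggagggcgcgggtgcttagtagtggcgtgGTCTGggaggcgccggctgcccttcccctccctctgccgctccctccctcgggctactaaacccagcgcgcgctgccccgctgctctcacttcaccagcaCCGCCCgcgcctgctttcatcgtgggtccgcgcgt
Col4a1, chr8:11312777-11313076, minus strand: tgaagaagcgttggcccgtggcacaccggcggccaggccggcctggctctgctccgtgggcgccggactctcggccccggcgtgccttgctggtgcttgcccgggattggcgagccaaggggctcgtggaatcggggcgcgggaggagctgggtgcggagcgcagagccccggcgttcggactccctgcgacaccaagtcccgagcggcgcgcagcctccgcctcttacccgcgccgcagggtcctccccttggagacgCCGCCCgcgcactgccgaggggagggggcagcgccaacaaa

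The Tgfbi window held 1 match to the p53 family half-site, GGACTAGTTC, and 8.36% of 32851 promoter windows of this length held such a match. It also held 2 Smad matches (49.6% of windows held at least 1) and 2 Sp1 matches (35.7% of windows). The Tnc window held 1 Smad, 1 Sp1 and 1 TATA match, the last found in 13.6% of windows. Tnc had 2 annotated starts, and the window of the outermost is printed. The Col4a1 window held 1 Sp1 match and was 74.0% G or C, against a median of 52.7% over all windows. None of the 3 windows held the AP-1 motif (7.81% of windows) or the TEAD motif (14.7%). A match is a string of letters and no shown binding site.

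Every deposited value is a log2 ratio between the dyes of an array, with the base inferred from the range and the numerator dye unstated. Database numbers in the labels fall into 2 runs: the lower (repeat 1 of low calcium, repeats 1 and 2 of high calcium) is called the first array set and the higher the second array set. Of the 9558 probes, the first set had 7869 to 9096 with a value per array and the second 3366 to 6974. Taking Cy5 as the numerator, the signs of the reversed arrays were turned, and a pair value is the mean of the forward and the turned reversed ratio. A negative pair value then stands for less RNA in the cells labelled deltaNp63alpha. This direction was assumed and is not settled. Its basis is the usual order of such a ratio and the title of the series, in which maspin is negatively regulated; with Cy3 over Cy5 every sign would be the opposite. Serpinb5, which encodes maspin, had pair values of -1.02, -0.50 and -0.89 in low calcium and -0.79 and -0.99 in high calcium under this reading. With deposited signs kept they were 0.19, 0.46, 1.45, -0.27 and 0.31. The title helped to choose the reading, so these values are no separate support for it. The labels list deltaNp63alpha as channel 2 of every array, reversed arrays included. A deposited ratio of channel 2 over channel 1 would need no turning, and the values under that reading are given below as those with deposited signs kept. Over all rows, the forward and reversed arrays of a pair correlated positively as deposited, with r = 0.21, 0.71 and 0.60 in low calcium. In high calcium r was 0.12, 0.26 and 0.53. Ratios that only turned with the dye would give a negative r. Whether unturned ratios or a part shared by both orientations gave the positive r was not tested. The probe of Trp63, the gene given to the cells, had negative pair values in 3 of its 4 pairs (-0.78, -0.59 and -0.51 against 0.45). If that probe detects the transgene, this goes against the direction used here or against the labels. With Cy3 over Cy5 those 3 values would be positive. With deposited signs kept the Trp63 pairs read -0.205 and -1.45 in low calcium and -0.18 and 0.51 in high calcium. Ratios carry no level, so keratinocyte identity could not be checked against marker levels, and less RNA per cell cannot be told apart from fewer cells that make it.

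Thbs1 stood lowest of the 4 genes at both calcium levels. Its deposited ratio in low calcium was -1.24, 0.23 and 0.29 on the forward arrays of repeats 1 to 3, and 1.93, 1.89 and 2.06 on the reversed arrays. In high calcium the forward arrays read -0.99, -1.51 and 1.05, and the reversed arrays of repeats 1 and 2 read 0.82 and 2.25, with no value in repeat 3. The sign thus turned with the dye in all 3 pairs of the first set, while the 5 second set values were all positive whichever dye carried deltaNp63alpha. The pair values were -1.58, -0.83 and -0.89 in low calcium and -0.91 and -1.88 in high calcium, all 5 below 0.

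Averaged over pairs, Thbs1 was at -1.10 ± 0.20 (SE, n = 3 pairs; log2 ratio) in low calcium, a 2.14-fold lower level. The high calcium value was -1.39 ± 0.25 (SE, n = 2 pairs), a 2.63-fold lower level. Each SE of a mean log2 ratio here is that of the limma fit. It uses 1 variance per row, shared by both calcium levels and drawn towards that of all rows. It is therefore not the spread of the pairs named beside it. Only 13 of the 4646 rows tested in low calcium and 10 of the 7263 tested in high calcium had a lower ratio. With deposited signs kept, 4549 rows in low calcium and 4604 in high calcium were lower than Thbs1. A row is a named gene, or a probe without a single gene name. The fit over all rows calls a row at an adjusted p under 0.05 (limma, Benjamini-Hochberg). Since the members were chosen on these values, their place under that threshold is a description and no test. Thbs1 lay under it at both levels, as 1 of 3 members fitted in low calcium, where 0.409% of rows were called (0.387% lower, 0.0215% higher), and 1 of 4 in high calcium, where 1.39% were called (0.84% lower, 0.551% higher). Nothing is read from these counts. Thbs1 was no longer under the threshold at either level with arrays as replicates, after scaling arrays to 1 spread, with a trended and robust variance and when single arrays of a pair were kept, nor in high calcium with the array set as a block (-1.03). Keeping the lone forward array of high calcium repeat 3 moved the high calcium value to -0.58. Forward arrays alone gave -0.24 in low calcium and -0.48 in high calcium. It also left the threshold in low calcium whichever low calcium pair was omitted (-0.86, -1.23 and -1.21 without repeats 1, 2 and 3), and in high calcium without high calcium repeat 2 (-0.91).

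**Figure D1:**
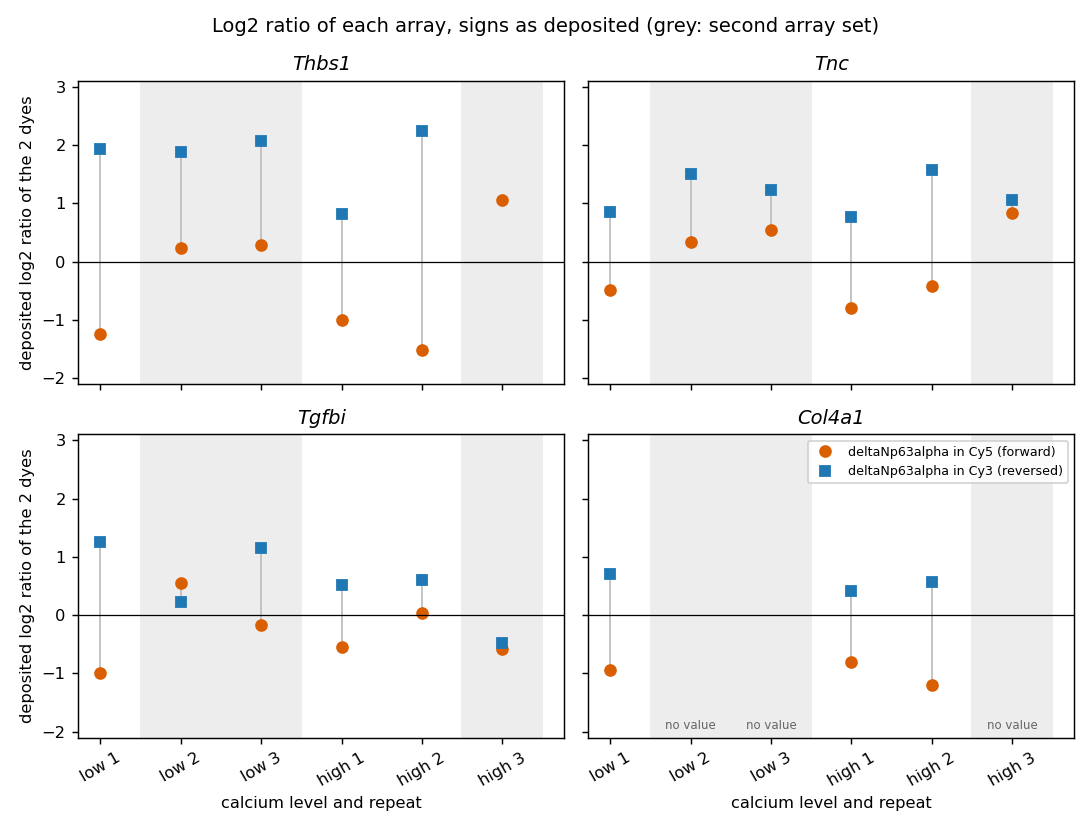
Deposited log2 ratio (y axis) of each member on every array, by calcium level and repeat (x axis). Circles are forward arrays (deltaNp63alpha in Cy5), squares reversed arrays (deltaNp63alpha in Cy3), a line joins the 2 arrays of a pair, and grey marks the second array set. Circles lie below 0 and squares above 0 in the 3 white columns for Thbs1, Tnc and Col4a1, and the Thbs1 and Tnc values in the grey columns are all above 0.

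Tnc followed the array pattern of Thbs1 at a smaller size. Its deposited ratios in low calcium were -0.48, 0.34 and 0.55 on forward arrays and 0.86, 1.51 and 1.24 on reversed arrays of repeats 1 to 3. In high calcium they were -0.80, -0.42 and 0.84 on forward arrays and 0.77, 1.57 and 1.05 on reversed arrays. As for Thbs1, the sign turned with the dye in the first set only, and all 6 second set values were positive. The 6 pair values were all below 0 and lay between -0.67 and -0.34 in low calcium and between -0.99 and -0.11 in high calcium. The mean log2 ratio was -0.53 ± 0.17 (SE, n = 3 pairs) in low calcium and -0.63 ± 0.17 (SE, n = 3 pairs) in high calcium, and neither lay under the threshold. The SD between pairs was 0.17 in low calcium and 0.46 in high calcium. Without high calcium repeat 3 the high calcium value was -0.89 and lay under the threshold. Forward arrays alone turned the low calcium value to 0.14, and reversed arrays alone gave -1.20.

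In low calcium Tgfbi varied more between pairs (SD 0.65) than Thbs1 (SD 0.42) or Tnc (SD 0.17), with n = 3 pairs each. Its deposited ratios there were -0.99, 0.55 and -0.16 on forward arrays and 1.25, 0.23 and 1.15 on reversed arrays of repeats 1 to 3. The pair values were -1.12, 0.16 and -0.66, so 1 of 3 pairs had the opposite sign. In high calcium the forward arrays read -0.55, 0.04 and -0.58 and the reversed arrays 0.51, 0.61 and -0.47, which gave pair values of -0.53, -0.29 and -0.05. The mean log2 ratio was -0.54 ± 0.20 (SE, n = 3 pairs) in low calcium and -0.29 ± 0.20 (SE, n = 3 pairs) in high calcium, and neither lay under the threshold. In low calcium it was -0.25 without repeat 1 and -0.89 without repeat 2. In high calcium it was -0.17 without repeat 1.

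Col4a1 had values on 6 of the 12 arrays, all in the first set. The forward arrays read -0.94, -0.81 and -1.19 and the reversed arrays 0.70, 0.41 and 0.58 in repeat 1 of low calcium and repeats 1 and 2 of high calcium. All 3 pairs turned with the dye, with pair values of -0.82 in low calcium and -0.61 and -0.88 in high calcium. The single low calcium pair was not tested. The high calcium mean was -0.75 ± 0.19 (SE, n = 2 pairs), a 1.68-fold lower level, and did not lie under the threshold. Col4a2, whose product forms the common collagen IV trimer with that of Col4a1, was at 0.10 ± 0.19 (SE, n = 2 pairs) in high calcium. It was positive in both pairs (0.078 and 0.13), turned to -0.14 on reversed arrays alone, and was named after its values were seen. The difference between the 2 genes was not tested.

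**Figure D2:**
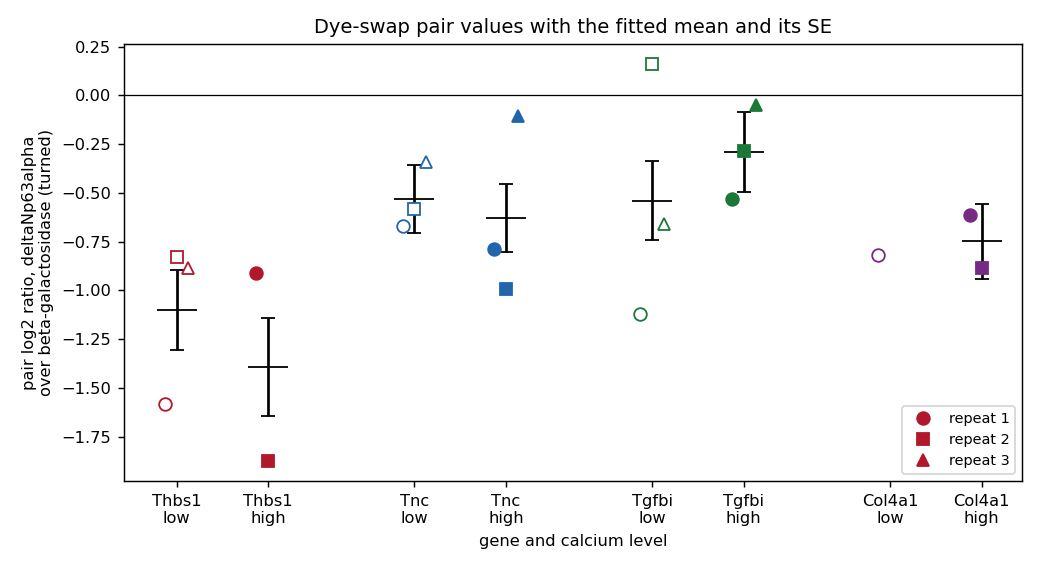
Pair log2 ratios of deltaNp63alpha over beta-galactosidase (y axis) for each member and calcium level (x axis), with the fitted mean and its SE as a bar where at least 2 pairs were measured. Open symbols are low calcium, filled symbols high calcium, and the symbol shape gives the repeat. Of the 20 pair values, 19 lie below 0, and the exception is Tgfbi in low calcium repeat 2 at 0.16.

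Set in order, the low calcium means ran from Thbs1 (-1.10) through Tgfbi (-0.54) to Tnc (-0.53), with the single Col4a1 pair at -0.82. The high calcium means ran from Thbs1 (-1.39) through Col4a1 (-0.75) and Tnc (-0.63) to Tgfbi (-0.29). These are ratios of different probes and give no order of transcript levels. Within pairs Thbs1 was below Tnc in all 5 pairs measured for both, by 0.57 ± 0.33 (SD, n = 3 pairs) in low calcium and 0.50 ± 0.54 (SD, n = 2 pairs) in high calcium. Thbs1 was likewise below Col4a1 in 3 of 3 pairs and below Tgfbi in 5 of 5. Tnc and Tgfbi did not differ beyond their spread in low calcium, where the difference was 0.0077 ± 0.65 (SD, n = 3 pairs). In high calcium Tnc was below Tgfbi in 3 of 3 pairs, by 0.34 ± 0.33 (SD), about the spread itself.

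Each pair can be split into the part that turns with the dye, which is the pair value, and the part shared by both orientations, which is the mean of the 2 deposited ratios. For Thbs1 the shared part was 0.34, -0.08 and 0.37 in the first set pairs, smaller than the pair values. In low calcium repeats 2 and 3 it was 1.06 and 1.18, larger than the pair values of -0.83 and -0.89. For Tnc it was 0.92, 0.90 and 0.95 in the 3 second set pairs, against -0.01 to 0.58 in the first set. Tgfbi had shared parts of -0.52 to 0.50, larger than its pair value in 3 of 6 pairs, and Col4a1 of -0.31 to -0.12, smaller in 3 of 3. The shared part exceeded the pair value in 53.5% to 60.7% of rows in the first set pairs and in 70.6% to 79.5% in the second set pairs. Which array property differs between the sets was not tested.

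**Figure D3:**
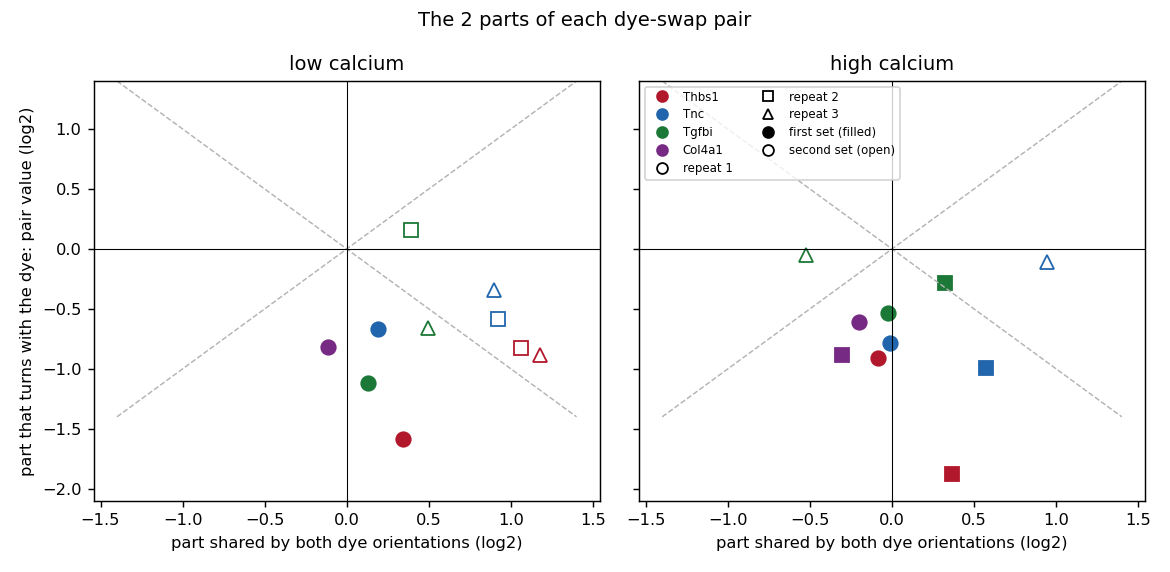
The part of each pair that turns with the dye (y axis, log2) against the part shared by both orientations (x axis, log2), by calcium level. Colours are genes, shapes repeats, filled symbols the first array set and open symbols the second; dashed lines mark equal size. The second set points of Thbs1 and Tnc lie to the right, at shared parts of 0.90 to 1.18, beyond the dashed line.

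Over the first set, 6699 rows had a value on all 6 arrays. In 7.37% of them all forward ratios were negative and all reversed ratios positive, and in 4.94% the signs were the other way. Thbs1, Tnc and Col4a1 were in the former class, and Tgfbi missed it by a forward ratio of 0.04 in high calcium repeat 2. The sign of a member therefore depends on how the reversed arrays are read. With the deposited signs kept on all arrays, the low calcium log2 ratios were 0.86 for Thbs1, 0.67 for Tnc and 0.34 for Tgfbi, and -0.12 in the 1 Col4a1 pair. The high calcium ratios were then 0.14 for Thbs1, 0.50 for Tnc, -0.07 for Tgfbi and -0.25 for Col4a1. Under that reading 16.4% of rows were called in low calcium, with Thbs1 under the threshold, and 0% in high calcium.

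The next comparison asked whether the ratio of a member differed between calcium levels. The difference itself was not used to choose the genes. Both ratios that form it were, so it is not free of that choice. No array set the calcium levels side by side, so this is a difference of differences, and Col4a1 had too few low calcium pairs for it. No row passed (limma, 0 of 4209 rows, 0% called; 107 rows, 2.54%, at an unadjusted p under 0.05). The high minus low difference was -0.29 ± 0.32 (SE) for Thbs1, with a 95% interval of -0.99 to 0.40 and a limma adjusted p of 0.9997. It was -0.10 ± 0.25 (SE) for Tnc (interval -0.63 to 0.43) and 0.25 ± 0.29 (SE) for Tgfbi (interval -0.37 to 0.87), each also with a limma adjusted p of 0.9997. The intervals leave room for differences of either sign, and the sign of each difference turned under some alternatives. The first set alone gave 0.19 for Thbs1. With the array set as a block the difference was 0.19 for Thbs1 and 0.067 for Tnc.

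Matrix and adhesion genes beyond the 4 members were taken from 8 lists. Of 144 such genes on the arrays, 80 were tested in low calcium and 117 in high calcium, and 4 were called lower at each level and none higher. Over all rows tested, 0.387% were called lower in low calcium and 0.84% in high calcium. Their median log2 ratio was -0.08 in low calcium and -0.03 in high calcium, against 0.017 and 0.0054 over all rows tested. The lists were drawn up with earlier results of these arrays known, so their counts are not independent evidence of a direction.

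Among the receptors, Itgb1 encodes the shared beta subunit of many collagen, laminin and fibronectin integrins. Under the reading used, its log2 ratio was -1.25 ± 0.18 (SE, n = 3 pairs) in low calcium and -0.93 ± 0.18 (SE, n = 3 pairs) in high calcium. Its pair values were -1.58, -0.86 and -1.30 in low calcium and -0.87, -1.39 and -0.52 in high calcium. Sdc1, a cell surface heparan sulfate proteoglycan, was at -1.22 ± 0.20 and -1.04 ± 0.20 (SE, n = 2 pairs each). These 2 were the receptors called, of 10 tested in low calcium and 15 in high calcium, where 0.409% and 1.39% of all rows were called. Dag1, the dystroglycan receptor for laminins, was at -0.45 and -0.84 and did not pass. Cd44, a hyaluronan receptor, was at -0.48 and -0.33 and did not pass. Cd44 was above 0 at both levels on forward arrays alone. It was called on reversed arrays in low calcium (-1.18) and in the first set in high calcium (-0.65). Its 1 low calcium pair in the first set was at -1.05. Dag1 was called in high calcium in the first set (-0.84), with that level fitted alone and without low calcium repeat 1 or 2. Its 1 low calcium pair in the first set was at -0.96.

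Of the 10 other matricellular and adhesive genes tested in low calcium and 16 in high calcium, none was called, beside 0.409% and 1.39% of all rows. A count of none among so few genes does not show that they were unchanged, here and in the other lists. Ccn1, an integrin-binding matricellular protein with the smallest p of these in high calcium, was at -0.34 and -0.47. Thbs2, a close relative of Thbs1, had log2 ratios of -0.16 ± 0.18 (SE, n = 2 pairs) and 0.19 ± 0.15 (SE, n = 3 pairs). It was named after its values were seen, and its low calcium sign turned in the first set alone (0.0245). No basement membrane gene was called, of 11 tested in low calcium and 17 in high calcium, beside the same shares of all rows. Col4a5, another collagen IV chain, was at -0.58 ± 0.19 and -0.81 ± 0.19 (SE, n = 3 pairs each), with 5 of 6 pairs below 0. Its high calcium value lay near the threshold: it was called with the replicate block (-0.81), the array set block (-0.71), that level alone, each probe as its own row, the first set alone (-0.96) and without any 1 low calcium pair. In low calcium it was called without repeat 2 (-0.90), and its 1 first set pair was at -1.06. Pxdn, the peroxidase that cross-links collagen IV, was at 0.20 and -0.44.

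None of the 11 and 17 interstitial collagen and elastic fibre genes tested was called, beside 0.409% and 1.39% of all rows. Col1a2, a chain of collagen I, was at 0.13 and 0.27, and turned below 0 at both levels on reversed arrays alone. Vcan, the proteoglycan versican, was at -0.32 and 0.08. None of the 6 and 11 collagen-modifying enzymes was called, beside the same shares of all rows. P4hb, a subunit of collagen prolyl 4-hydroxylase, was at -0.47 and -0.39, with all 6 pairs between -0.72 and -0.31, and Crtap, a partner of prolyl 3-hydroxylase, was at -0.58 and 0.13. Its low calcium value was -0.086 without repeat 2.

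Of the genes of TGF-beta signalling, 13 were tested in low calcium and 17 in high calcium. None was called, beside 0.409% and 1.39% of all rows, which does not show that these genes were unchanged. Eng, a TGF-beta co-receptor, was at -0.55 and -0.37, and Id3, a target of the pathway, at -0.44 and -0.53. Of 12 and 18 matrix proteases and inhibitors, 1 was called at each level, beside the same 0.409% and 1.39% of all rows. Ctsl, a lysosomal cysteine protease, was at -1.11 ± 0.17 (SE, n = 3 pairs) in low calcium and -0.72 in high calcium. Adamts1, a secreted metalloprotease that cleaves versican, was at -0.89 ± 0.19 (SE, n = 2 pairs) in high calcium. Its single low calcium pair read -1.13. Ctsd, another lysosomal protease, was at -0.60 and Adam15, a membrane metalloprotease, at -0.51 in high calcium, and neither passed. Of 7 focal adhesion genes tested at each level 1 was called, beside 0.409% and 1.39% of all rows. This was Cav1, the main caveolar protein, at -1.17 ± 0.22 (SE, n = 3 pairs) and -1.36 ± 0.27 (SE, n = 2 pairs). Zyx (-0.23 and -0.35) and Vasp (-0.15 and -0.24), both regulators of actin at adhesions, did not pass.

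The calls of Itgb1, Sdc1, Ctsl, Adamts1 and Cav1 were lost under 6 alternatives: deposited signs kept, forward arrays alone, single arrays kept, arrays as replicates, arrays scaled to 1 spread, and a trended and robust variance. In low calcium they were also lost without repeat 1 (Itgb1, Sdc1, Cav1), repeat 2 (Sdc1, Ctsl, Cav1) or repeat 3 (Ctsl, Cav1). In high calcium they were lost without repeat 1 (Sdc1, Adamts1) or repeat 2 (Itgb1, Sdc1, Adamts1, Cav1). Cav1 was at -0.73 without high calcium repeat 2, and lost its high calcium call with the array set block (-1.09). Adamts1 lost its call with the replicate block (-0.87). On reversed arrays alone the high calcium calls of Itgb1, Sdc1, Adamts1 and Cav1 and the low calcium call of Ctsl were lost. In the second set alone the low calcium calls of Itgb1 and Cav1 were lost.

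**Figure D4:**
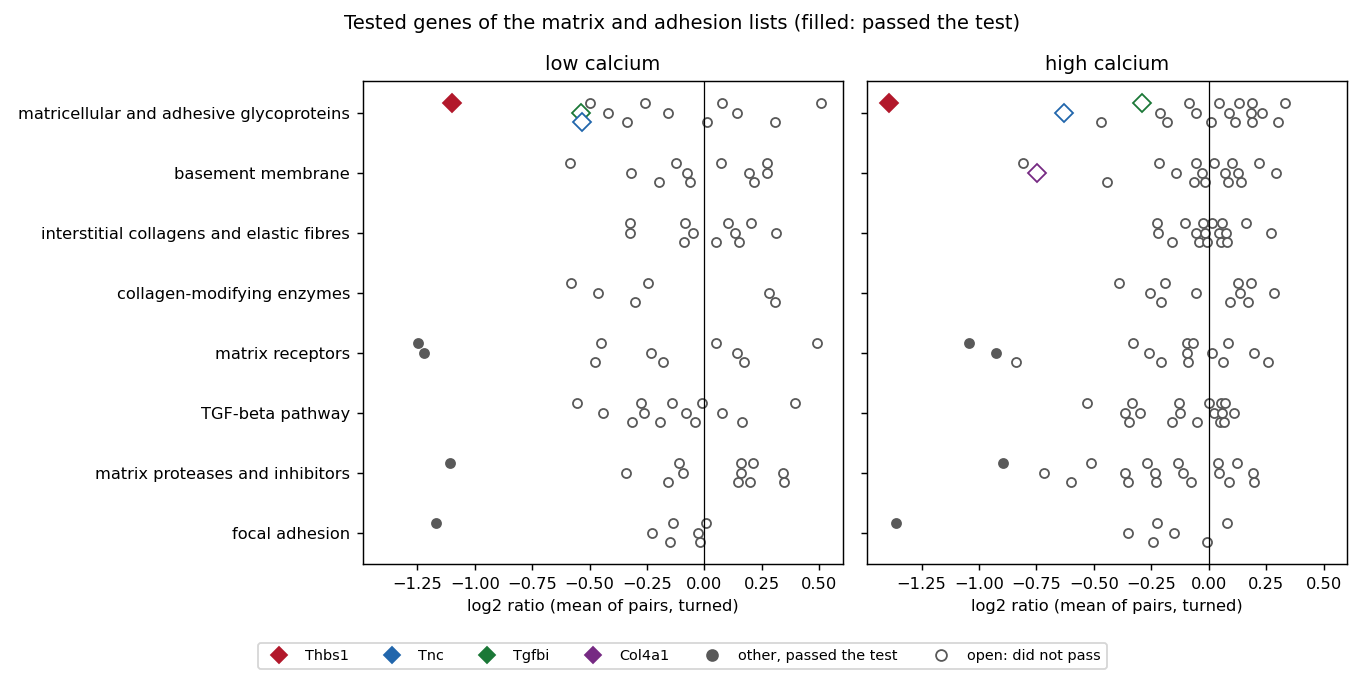
Mean log2 ratio of the pairs (x axis) of every tested gene of the 8 lists (y axis), by calcium level. Diamonds are members, circles other genes, and filled symbols passed the test. Most circles lie near 0, and the filled circles lie between -1.36 and -0.89.

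Among the named genes, the array pattern most like that of Thbs1 was that of Dynll2 (cosine similarity 0.992 over 9 arrays), then Laptm4a (0.982, 10 arrays) and Itgb1 (0.977, 11 arrays). Cosine similarity compares the deposited values of 2 genes over shared arrays and is the same however arrays are turned. The median over 3972 candidates was -0.0026. For Tnc the nearest were Esd (0.976, 9 arrays), Ctnna1 (0.972, 12 arrays) and Sub1 (0.961, 12 arrays). For Tgfbi they were Adamts1 (0.864, 9 arrays), Atp5a1 (0.863, 8 arrays) and Vps35 (0.863, 10 arrays). Those of Col4a1 rest on 6 arrays: Dag1 (0.995), Azi2 (0.988) and Clic4 (0.988). Between members the similarity was 0.952 for Thbs1 with Tnc (11 arrays), 0.901 for Thbs1 with Col4a1 (6 arrays) and 0.533 for Tnc with Tgfbi (12 arrays). All of these share arrays, and so share dye effects.

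Of the markers of other cell types, none was called at either level: of fibroblast markers 5 were tested in low calcium and 7 in high calcium, of endothelial markers 5 and 4, of melanocyte markers 2 and 2, and of leukocyte markers 5 and 6. Over all rows 0.409% and 1.39% were called, so none among so few genes does not show that they were unchanged. The median log2 ratio of the fibroblast markers was -0.01 and -0.10, with single genes from -0.31 to 0.27 in high calcium. Of 6 keratinocyte markers tested in high calcium 1 was called, the suprabasal keratin Krt10 (-1.57 ± 0.20 SE, n = 2 pairs), and of 3 tested in low calcium none. The high calcium median of these markers was -0.099, with 3 of the 6 below 0. Cdh1 was at -0.70 and Itgb4 at -0.26, while Krt5 (0.11), Itga6 (0.061) and Sfn (0.21) were above 0. The Krt10 call was lost under the same 6 alternatives and on reversed arrays alone. The high calcium count of keratinocyte markers called was 0 under all of these, with all 3 pairs required and without high calcium repeat 1 or 2. It was 2 with that level alone, the replicate block, each probe as its own row and the first set. It was also 2 without any 1 low calcium pair and without high calcium repeat 3. The part of other cells in the member ratios was not tested.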

How the data were processed

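The authors deposited log2 ratios of the 2 dyes for each of 12 two-colour arrays. Per the labels' protocols, total RNA was extracted with TRIzol and labelled with a Genisphere kit. Their range (-7.88 to 4.60) was the reason for reading the unstated base as log2. How the arrays were scanned, corrected, normalised and filtered is not given in the sources used here. Each array was centred on its median, which moved no value by more than 0.0005.

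Of 9558 probes, 7457 carried a single gene symbol, 481 more than 1 and 1620 none; 7368 symbols were updated by gene ID (GRCm38.p6 table). Probes of a symbol were averaged, giving 8875 rows with 2101 unnamed. Pair values of both calcium levels were fitted together by lmFit and eBayes of limma 3.58.1 in R 4.3.3. Rows with at least 2 pairs at a level were tested, and a Benjamini-Hochberg adjusted p under 0.05 was called. The procedure was tested on simulated pairs with independent noise drawn from the fitted variance, without a shared dye part or a set difference. Of 50 planted log2 changes of 0.5, a median of 22% was called in low calcium and 10% in high calcium over 5 runs. For changes of 1 the medians were 88% and 84%. That setting differs from these arrays, so it does not show how calls behave here. Incomplete pairs were treated as missing.

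The members, gene lists and orientation were chosen with earlier results of these data known; the value of a pair was its mean after turning the reversed array. Named genes were the members, Trp63, list genes called at either level, up to 2 further genes of smallest p per list (the rule allowed 3), and the 3 genes of highest cosine similarity to each member (at least 8 shared arrays, or 6 for Col4a1). Thbs2, Col4a2, Serpinb5 and the keratinocyte markers Krt5, Itga6 and Sfn were named outside this rule. Same-numbered repeats of both calcium levels deviated with r = -0.03, -0.11 and 0.20 over 1381 rows. Differently numbered repeats ranged from -0.29 to 0.27, so no repeat block was used. That check does not bear on the array set, which was a block only in an alternative. Alternatives covered orientation, array spread, variance model, blocks, filters and left-out pairs.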

Additional observations from a re-analysis of the deposited data

Results flagged for a closer look

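Pxdn was below 0 in both measured high calcium pairs (-0.60 and -0.28) and above 0 in both measured low calcium pairs (0.15 and 0.24). Its high minus low difference was -0.64, and no row passed the limma test of that difference.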

How the results depend on the processing

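Log2 ratios and counts of called rows are given for low, then high calcium unless marked; causes were not tested. The counts were 19 and 101, with 0 for the difference between levels. They became 763 and 0 with deposited signs kept, 0 and 0 with single arrays of a pair kept or a trended and robust variance, 1 and 0 with arrays as replicates, 0 and 1 after scaling arrays to 1 spread, 33 and 0 on forward arrays, 330 and 1 on reversed arrays, 49 and 236 with each level fitted alone, 317 and 598 in the first array set and 8 and 21 in the second. The high calcium count was 33 with all 3 pairs required, where fewer rows were tested. With the array set as a block the low calcium count was 47, and with the repeat number as a block (replicate block) 59. The difference count was 2, 1, 2 and 7 with the replicate block, the array set block, the first and the second set. Without 1 pair the counts ranged from 6 to 51, from 33 to 151 and from 0 to 1. Rows shared 1 variance without high calcium repeat 1 or 2, and a lone remaining pair was assumed to vary like the others.

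For the members, which were chosen on these ratios, a call is a description. Thbs1 lost its call with single arrays kept (-1.10 and -0.58), arrays as replicates (-1.10 and -0.90), 1 spread (-1.14 and -1.98), a trended and robust variance (-1.10 and -1.39) and on forward arrays (-0.24 and -0.48). It lost it in high calcium on reversed arrays (-1.53) and with the array set block (-1.03), and in low calcium in the second set (-0.86). Without 1 pair Thbs1 ranged from -1.23 to -0.86 and from -1.88 to -0.91, and Tnc in high calcium from -0.89 to -0.45. Calls were gained by Tnc on reversed arrays in low calcium (-1.20). In high calcium Tnc gained a call in the first set and without high calcium repeat 3 (-0.89 in both). Col4a1 gained a call in high calcium in the first set or with that level alone (-0.75 in both). The 1 first set pair of Tgfbi in low calcium was at -1.12.

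With deposited signs kept, values that changed sign in low calcium were Thbs1 0.86, Tnc 0.67, Tgfbi 0.34, Thbs2 0.66, Col4a5 0.077, Pxdn -0.48, P4hb 0.29, Itgb1 0.86, Sdc1 0.98, Dag1 0.067, Cd44 0.70, Ctsl 0.39, Cav1 0.19, Zyx 0.70 and Vasp 0.14. In high calcium they were Thbs1 0.14, Tnc 0.50, Trp63 0.16, Col4a5 0.15, Vcan -0.50, P4hb 0.10, Itgb1 0.49, Sdc1 0.18, Cd44 0.59, Id3 0.051, Ctsl 0.043, Ctsd 0.26 and Zyx 0.073.

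On forward arrays the sign changed in low calcium for Tnc (0.14), Thbs2 (0.66), Pxdn (-0.28), Cd44 (0.23) and Zyx (0.47), and in high calcium for Vcan (-0.43) and Cd44 (0.26). On reversed arrays it changed in low calcium for Trp63 (0.67), Col1a2 (-0.15), Vcan (0.45) and Id3 (0.073), and in high calcium for Thbs2 (-0.34), Col4a2 (-0.14), Col1a2 (-0.18) and Eng (0.12). It also changed for Thbs2 in low calcium with arrays as replicates (0.068), single arrays kept (0.22), the first set and without low calcium repeat 2 (0.0245 in both), for Crtap in the first set (0.0385), and for Vcan (-0.016) and Cd44 (0.31) in the second set in high calcium. Trp63 turned with the replicate block (0.17) and without repeat 1 (0.45) in low calcium, and with the array set block (0.067) in high calcium. Without 1 pair, Dag1 in low calcium ranged from -0.96 to 0.061 and Col1a2 from -0.016 to 0.30.

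The high minus low difference changed sign for Thbs1 with single arrays kept (0.52), arrays as replicates (0.20), reversed arrays (0.43), the array set block or first set (0.19) and without high calcium repeat 2 (0.19). It did so for Tnc on reversed arrays (0.07), with the array set block (0.067), in the second set (0.35) and without high calcium repeat 2 (0.084), and for Tgfbi with deposited signs kept (-0.41), on forward arrays (-0.16) and without low calcium repeat 1 (-0.041). Without 1 pair the differences ranged from -0.78 to 0.19 for Thbs1, from -0.36 to 0.084 for Tnc and from -0.041 to 0.60 for Tgfbi. Of the called rows, 18 of 19 and 61 of 101 were lower, and 1 of 1 in high calcium after scaling arrays to 1 spread. In low calcium 458 of 763 were lower with deposited signs kept and 119 of 330 on reversed arrays.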
